A study of Mus musculus with 24 samples.

Results

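The mouse Zfp genes with a number of 600 or above encode zinc finger proteins, and were taken as every gene symbol made of Zfp and such a number in the deposited RNA tables. These tables cover ESCs, which are embryonic stem cells, and NPCs, which are neural progenitors. The rule found 171 of the 21909 symbols. Another 194 symbols of the same form have a number below 600. The study asked which parts of the genome lie against the nucleolus in each cell type and how they differ after differentiation. The ESCs were the E14 line, untreated, grown without feeder cells in a medium with leukemia inhibitory factor and inhibitors of MEK and GSK3β. The NPCs were made from E14 cells through floating embryoid bodies over 8 days in medium with fetal calf serum, with 2 µM retinoic acid during the last 4 days. RNA came from 3 replicate samples of each cell type, was enriched for poly(A) tails, and is given as RPKM, a read count divided by exon length and by library size. Nucleolus-associated domains (NADs) were mapped in E14 lines with an inducible transgene at the Rosa26 locus that joins the Dam methyltransferase to histone H2B. The H2B-Dam-NoLS form also carries a signal for the nucleolus and the H2B-Dam form does not, and each was measured in 2 samples per cell type. Both forms were switched on by doxycycline (100 ng/ml) together with Shield1 (1 µM), given for 15 h to ESCs and to NPCs differentiated as above. All 6 RNA samples were compared as ESCs against NPCs, and no label names a preparation shared by both, so a difference between the cell types and one between their preparations cannot be told apart.

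A zinc finger of the C2H2 type is a short loop held by a zinc ion, and arrays of such fingers read DNA sequence. Many of these proteins also carry a KRAB box, which binds TRIM28 and through it brings the histone methyltransferase SETDB1, HP1 proteins and H3K9me3 to the bound site. Mouse KRAB zinc finger genes lie in tandem clusters that duplicated recently, and several of their proteins silence retrotransposons in early embryos and ESCs.

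The cell labels were first checked against marker genes. All 10 ESC markers fell in NPCs, and their summed level was 1770, 1770 and 3670 RPKM in the ESC samples and 2.86, 2.52 and 2.52 RPKM in the NPC samples. Dppa5a was the most abundant of them in ESCs, and Pou5f1, which encodes the pluripotency factor OCT4, had a mean of 0.0532 RPKM in NPCs. Of the 10 neural progenitor markers 6 could be tested, and 4 rose. Their sum was 41.1, 42.7 and 49.9 RPKM in ESCs and 94.5, 99.8 and 105 RPKM in NPCs, with Vim, an intermediate filament gene, the most abundant in both. Pax6, the radial glia marker that the labels name, lay at 1.55, 1.42 and 1.67 RPKM in NPCs and at or under 0.0167 RPKM in ESCs.

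Markers of other lineages differed in direction. The tested mesoderm, mesenchyme and endoderm markers rose in NPCs, and the tested neuron and neural crest markers fell. Of 8 mesoderm and mesenchyme markers 7 could be tested and all 7 rose, with sums of 1.26, 1.35 and 1.05 RPKM in ESCs and 106, 114 and 110 RPKM in NPCs. Foxf1, a mesenchymal transcription factor gene, was the most abundant of them in NPCs, and T, the gene of the early mesoderm factor brachyury, was not tested and had the opposite order, with means of 0.959 RPKM in ESCs and 0.0123 RPKM in NPCs. Of 7 endoderm markers 2 could be tested and both rose, with sums of 0.100, 0.118 and 0.0837 RPKM in ESCs and 14.8, 16.2 and 15.7 RPKM in NPCs. Gata6 was their most abundant gene in NPCs, and Afp, which marks visceral endoderm and fetal liver, had a mean of 0.0218 RPKM. Of 6 neuron markers 2 could be tested, Tubb3 and Stmn2, and both fell, and the sums were 11.2, 12.2 and 14.5 RPKM in ESCs against 7.01, 5.66 and 6.75 RPKM in NPCs, with Tubb3 the most abundant. The untested neuron markers Dcx, Elavl3, Elavl4 and Map2 had the opposite order, with every NPC sample above every ESC sample and means of 0, 0.0250, 0.0112 and 0.0133 RPKM in ESCs and 0.916, 0.826, 0.132 and 0.147 RPKM in NPCs. The 3 neural crest markers summed to 7.66, 8.14 and 7.17 RPKM in ESCs and 1.11, 1.06 and 1.11 RPKM in NPCs, and these sums mostly give Foxd3, also a gene of pluripotent cells, which was the only 1 tested and fell. Sox10 and Tfap2b were low, but every NPC sample lay above every ESC sample, with NPC means of 0.0848 and 0.178 RPKM. The NPC samples thus held RNA of several lineages, and the part of this mixture in the differences below was not tested. In such bulk samples, fewer cells of a type and less RNA per cell cannot be told apart.

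ESC replicate 3 stood apart from the other ESC samples. Over all symbols, on the log2(RPKM + 1) scale, it correlated with ESC replicates 1 and 2 at r = 0.979 and 0.980, where those 2 correlated with each other at 0.999 and every NPC pair at 0.998 or above. Its RPKM values summed to 139967, against 103994 and 105837 in ESC replicates 1 and 2 and 85271, 86496 and 85932 in the NPC samples. The 171 members summed to 258, 247 and 223 RPKM in ESCs and 331, 341 and 335 RPKM in NPCs, which was 0.248, 0.233 and 0.159% of all RPKM in ESCs and 0.389, 0.395 and 0.390% in NPCs. The number of reads in each library is not given in the tables. Low RPKM values move in steps of whole reads, and the size of these steps put the libraries at 1, 0.991, 0.904, 0.885, 0.801 and 0.949 of the reads of ESC replicate 1, in the same order.

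Most members were expressed at a low level. The median member had a mean of 0.662 RPKM in ESCs and 0.830 RPKM in NPCs. With a mean of at least 1 RPKM taken as expressed, 66 members were expressed in ESCs and 73 in NPCs, of which 48 were expressed in both, 18 in ESCs alone and 25 in NPCs alone, while 80 reached this level in neither. This was 38.6% of the members in ESCs and 42.7% in NPCs, against 29.4% and 33.4% of all symbols. 4 members had 0 RPKM in every sample. The test was run on log2(RPKM + 1) over the 7150 genes whose mean over the 6 samples was at least 1 RPKM, and a gene was called at an adjusted p under 0.05. Of the members 73 passed this filter and 98 did not, and a gene that is abundant in 1 cell type alone passes it through that cell type.

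Of the 73 tested members 34 rose in NPCs, 20 fell and 19 were not called. Over all tested genes 67.8% were called, 33.3% higher and 34.5% lower in NPCs, so the share of called members, 74.0%, was near that of all genes. The members' median log2 difference was 0.21, against -0.04 for all tested genes and 0.44 for the 105 tested Zfp genes below 600, of which 57 rose and 18 fell. The balance between rises and falls depended on the scaling. When samples were rescaled by the median ratio of genes, the median of all tested genes moved from -0.04 to -0.26. The members' median moved from 0.21 to 0.01, with 23 members higher and 24 lower. These were 31.51% and 32.88% of the tested members, against 26.03% and 43.26% of all tested genes. After quantile normalization 26 members were higher and 28 lower. These were 35.62% and 38.36%, against 32.24% and 38.91% of all tested genes. Without ESC replicate 3, 39 members were called higher and 24 lower, and these included all 34 and all 20 of the calls made with it, while over all tested genes the share called was 87.0% in that fit, against 86.3% of members. By at least 1 on the log2 scale, 10 members rose and 8 fell, where the shares of all tested genes were 15.2% and 12.3%. Among all 171 members, the 3 ESC values and the 3 NPC values did not overlap for 137, or 80.1%, with NPCs above for 87 and ESCs above for 50. Over all symbols the values did not overlap for 61.1%, with NPCs above for 8357 and ESCs above for 5030, so more genes had NPCs above in both sets. The symbols included 3549 with 0 RPKM in every sample, which always overlap. For the Zfp genes below 600 the share without overlap was 80.9%.

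**Figure D1:**
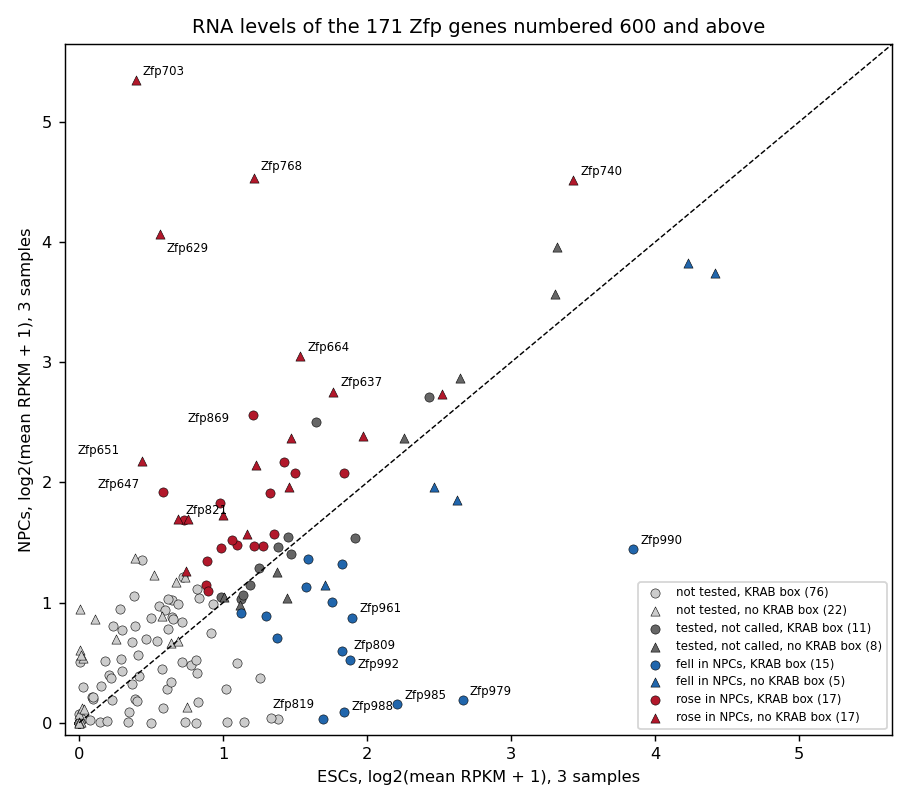
Mean level of each of the 171 members in ESCs (x axis) and NPCs (y axis), as log2(mean RPKM + 1) over 3 samples each; colour gives the call and shape the KRAB box. The dashed line marks equal levels, and the labelled genes are the 10 that rose and the 8 that fell by at least 1 on the log2 scale.

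The member with the largest rise was Zfp703, whose protein is a transcriptional repressor of the NET family and lacks a KRAB box. Its level was 0.355, 0.330 and 0.251 RPKM in the ESC samples and 34.4, 43.8 and 41.0 RPKM in the NPC samples. It was near 0 in each ESC sample and the most abundant member in NPCs, with means of 0.312 ± 0.0540 and 39.7 ± 4.81 RPKM (SD, n = 3 each) and a ratio of 127. On the log2(RPKM + 1) scale the difference was 4.95 (95% interval 4.68 to 5.21, adjusted p = 2.25e-07). The added 1 RPKM makes such differences smaller than the log2 of the ratio for genes of low level.

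Zfp629 and Zfp768 lie in the same group of genes on chromosome 7, described below. Zfp629, at chr7:127607031-127615797, had 0.573, 0.484 and 0.363 RPKM in ESCs and 16.0, 16.1 and 15.2 RPKM in NPCs, a rise of 3.51 (3.31 to 3.71, adjusted p = 2.53e-07). Zfp768, at chr7:127342795-127345589, had 1.18, 1.34 and 1.43 RPKM in ESCs and 20.5, 23.1 and 23.1 RPKM in NPCs, a rise of 3.33 (3.11 to 3.54, adjusted p = 3.98e-07). Both were low in every ESC sample and high in every NPC sample, with NPC means 33.3 and 16.9 times the ESC means.

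The other rises of at least 1 on the log2 scale were smaller. Zfp651 had 0.419, 0.413 and 0.233 RPKM in ESCs and 3.47, 3.65 and 3.46 RPKM in NPCs and rose by 1.74 (1.57 to 1.92, adjusted p = 2.62e-06). Zfp664 had 2.22, 2.16 and 1.30 RPKM in ESCs and 7.38, 7.31 and 7.15 RPKM in NPCs and rose by 1.53 (1.19 to 1.87, adjusted p = 0.000123). All 3 NPC samples of both genes lay above all 3 ESC samples. Zfp869 and Zfp647, which encode KRAB proteins, rose by 1.36 and 1.34, from means of 1.31 and 0.496 RPKM to 4.91 and 2.79 RPKM. Zfp740 had 11.1, 11.2 and 7.13 RPKM in ESCs and 22.5, 21.8 and 21.2 RPKM in NPCs, which placed it among the 5 most abundant members of both cell types, and it rose by 1.11 (0.69 to 1.52, adjusted p = 0.00154). Zfp637 and Zfp821 rose by 1.02 and 1.01. Of these 10 genes a KRAB box was found only in Zfp869 and Zfp647, and all 10 kept their call under each of the 15 alternatives.

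The members that fell most were KRAB genes. Zfp979 had 5.26, 4.38 and 6.37 RPKM in the ESC samples and 0.135, 0.145 and 0.141 RPKM in the NPC samples. Its ESC mean was 38.1 times its NPC mean, 5.34 ± 0.995 against 0.140 ± 0.00535 RPKM (SD, n = 3 each). It fell by 2.46 on the log2(RPKM + 1) scale (interval -2.74 to -2.18, adjusted p = 4.51e-06). Zfp990, the most abundant KRAB member in ESCs, had 15.4, 12.8 and 12.0 RPKM there and 1.63, 1.88 and 1.66 RPKM in NPCs, and fell, with an interval of -2.66 to -2.13 for the log2 difference (adjusted p = 3.97e-06). Zfp985 had 3.67, 3.18 and 4.04 RPKM in ESCs and 0.118, 0.102 and 0.117 RPKM in NPCs and fell by 2.05 (interval -2.24 to -1.87, adjusted p = 1.58e-06). In each of these 3 genes the lowest ESC sample was several times the highest NPC sample.

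Zfp819, a KRAB gene of pluripotent cells, lies on chromosome 7 at chr7:43607169-43618285. It had 2.28, 2.15 and 2.26 RPKM in ESCs and 0.0179, 0.0231 and 0.0279 RPKM in NPCs. It fell by 1.66 (interval -1.76 to -1.56, adjusted p = 2.91e-07) and was close to absent in each NPC sample. Zfp809 encodes a protein that binds the proline primer binding site of murine leukemia viruses and recruits TRIM28 to it. Its level was 3.32, 2.97 and 1.37 RPKM in ESCs and 0.511, 0.530 and 0.497 RPKM in NPCs, so that ESC replicate 3 lay well under the other ESC samples but above every NPC sample. It fell by 1.18 (interval -1.72 to -0.65, adjusted p = 0.00345), and by 1.45 without ESC replicate 3. Zfp961 fell by 1.01, from a mean of 2.72 to 0.833 RPKM. The 8 members that fell by at least 1 all encode a KRAB box, and all 8 kept their call under each of the 15 alternatives.

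Zfp870 and Zfp622 complete the 10 largest falls. Zfp870, a KRAB gene, had 2.53, 2.31 and 2.29 RPKM in ESCs and 1.00, 0.987 and 1.01 RPKM in NPCs and fell by 0.75 (adjusted p = 4.25e-05). Zfp622 encodes a factor in the assembly of the large ribosomal subunit. It had 4.05, 4.35 and 7.14 RPKM in ESCs and 2.52, 2.72 and 2.58 RPKM in NPCs, with ESC replicate 3 the highest, and fell by 0.74 (adjusted p = 0.0117) or by 0.53 without that sample.

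The most abundant members in ESCs were Zfp706, Zfp830, Zfp990, Zfp740 and Zfp687. Zfp706, which takes part in the control of ESC self-renewal, had 18.9, 19.1 and 22.9 RPKM in ESCs and 12.9, 12.1 and 12.3 RPKM in NPCs and fell by 0.66 (adjusted p = 0.00182). Zfp830, a nuclear protein gene needed in the early embryo and linked to splicing, had 18.6, 17.5 and 17.1 RPKM in ESCs and 13.1, 13.3 and 13.2 RPKM in NPCs and fell by 0.40 (adjusted p = 0.00598), a call lost after quantile normalization. Both stayed among the well expressed members in NPCs. Zfp687, whose protein forms a complex with the chromatin reader ZMYND8, had 10.5, 11.4 and 5.11 RPKM in ESCs and 14.3, 14.5 and 14.8 RPKM in NPCs. It was not called with all samples (log2 difference 0.70, adjusted p = 0.0551) and was called higher without ESC replicate 3, by 0.38, without ESC replicate 2 and after quantile normalization.

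Other members with a known role were mostly too low to be tested. Zfp638, whose protein acts with the HUSH complex in silencing unintegrated retroviral DNA, had 1.91, 1.69 and 1.20 RPKM in ESCs and 1.43, 1.42 and 1.31 RPKM in NPCs. Its groups overlapped, and it was not called (adjusted p = 0.39), though it was called lower without ESC replicate 3, at -0.23, and under both other scalings. Zfp932, which encodes a repressor of ERVK retroviral elements, had 1.28, 0.973 and 1.35 RPKM in ESCs and 1.17, 1.03 and 1.06 RPKM in NPCs, again with overlap and no call (adjusted p = 0.44), except a lower call after quantile normalization. The KRAB gene Zfp661 had 0.976, 0.904 and 0.653 RPKM in ESCs and 1.19, 1.22 and 1.23 RPKM in NPCs and rose by 0.26 (adjusted p = 0.0197), a call that was lost after median ratio scaling and without any 1 NPC sample, and turned in sign after quantile normalization.

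The untested genes with a known role are described by level alone. Zfp644, whose protein acts with the methyltransferases G9a and GLP, had means of 0.665 RPKM in ESCs and 1.32 RPKM in NPCs. Zfp711, an X-linked gene whose protein works with the demethylase PHF8, had means of 0.0184 and 0.452 RPKM, and Zfp827, which encodes a protein that brings the NuRD complex to telomeres, 0.0804 and 0.822 RPKM. All NPC samples of these 3 genes were above all ESC samples. Zfp704 had means of 0.493 and 0.853 RPKM, and Zfp750, a regulator gene of epidermal differentiation, 0.681 and 0.0925 RPKM, with every ESC sample above. Zfp708 was at or under 0.00217 RPKM in every sample.

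A KRAB box was found in the translated coding sequence of 119 of the 171 members, or 69.6%, against 92 of the 194 Zfp genes below 600, or 47.4%. The box was searched for as short patterns of conserved residues in the longest coding sequence of each gene. A box that departs from these patterns would be missed, so genes without a KRAB box are those with no match. The members had a median of 11 C2H2 fingers and at most 33, in Zfp619, and in 12 members, Zfp703 among them, no finger was found. Of 43 tested KRAB members 17 rose and 15 fell, with a median log2 difference of 0.06, and of 30 tested members without a KRAB box 17 rose and 5 fell, with a median of 0.47. The KRAB shares, 39.5% higher and 34.9% lower, were near the 33.3% and 34.5% of all tested genes, those without a KRAB box were 56.7% and 16.7%, and the difference between the 2 sets was not tested. Of the 10 rises of at least 1, 2 were KRAB genes, and of the 8 falls of at least 1 all 8 were. After median ratio scaling the counts were 9 rises and 17 falls with a KRAB box, and 14 and 7 without. These were 20.93% and 39.53% of the tested KRAB members, and 46.67% and 23.33% of those without. Of all tested genes, 26.03% were called higher and 43.26% lower in that fit. The 119 KRAB members summed to 134, 121 and 111 RPKM in ESCs and 108, 104 and 103 RPKM in NPCs, and the 52 others to 124, 125 and 111 RPKM in ESCs and 223, 237 and 232 RPKM in NPCs. The KRAB sums were lower in NPCs only with the chromosome 4 cluster described below included, and without its members they were 94.4, 87.7 and 75.1 RPKM in ESCs and higher in each NPC sample, at 105, 100.2 and 99.3 RPKM. For the Zfp genes below 600 with a KRAB box, 21 of 39 tested rose and 9 fell, and whether the balance differs between the groups was not tested.

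The co-repressor genes of KRAB proteins were given as a list of 19, of which 18 were tested: 4 rose, 6 fell and 8 were not called, with a median of -0.11 against -0.04 for all tested genes and a called share of 55.6% against 67.8%. After median ratio scaling 3 were called higher and 9 lower, and after quantile normalization 4 and 8. The shares called lower in these fits were 50% and 44.44%, against 43.26% and 38.91% of all tested genes. The shares called higher were 16.67% and 22.22%, against 26.03% and 32.24%. Trim28, the partner that binds the KRAB box, had 59.4, 64.8 and 79.3 RPKM in ESCs and 31.0, 29.9 and 29.9 RPKM in NPCs and fell by 1.13 (adjusted p = 0.000444). Uhrf1, which recruits the maintenance DNA methyltransferase, had 43.9, 45.3 and 24.2 RPKM in ESCs and 11.9, 13.6 and 13.4 RPKM in NPCs and fell by 1.42 (adjusted p = 0.00247). Hdac1, a histone deacetylase gene, fell by 1.05. Every ESC sample of these 3 genes lay above every NPC sample. Morc3, Cbx3 and Cbx1, of which the last 2 encode HP1 proteins, fell by 0.91, 0.44 and 0.34, where Cbx1 kept its call in 11 of the 15 alternatives and lost it with replicate number as a block (adjusted p = 0.058), after quantile normalization and without NPC replicate 2 or 3. Chd3, an ATPase gene of the NuRD complex, had 1.80, 1.72 and 0.699 RPKM in ESCs and 20.3, 19.0 and 16.9 RPKM in NPCs and rose by 3.07 (adjusted p = 2.62e-05). Mbd1, Cbx5 and Chd4 rose by 0.75, 0.73 and 0.72. Setdb1 had 9.78, 9.65 and 4.97 RPKM in ESCs and 5.75, 5.33 and 5.28 RPKM in NPCs and was not called (adjusted p = 0.133), with ESC replicate 3 under every NPC sample, but it was called lower without that sample and after median ratio scaling. Without ESC replicate 3, 10 of the 18 genes were called lower, where 46.4% of all tested genes were, and without any 1 NPC sample 2 were called higher, as Cbx5 and Chd4 lost their calls, Cbx5 also after median ratio scaling. Of the 5 genes of the HUSH complex and its partners 4 were tested, and 1, Mphosph8, fell, by 0.40 (adjusted p = 0.0483), a call kept in 7 of the 15 alternatives. With replicate number as a block Mphosph8 lost its call (adjusted p = 0.0676), and another of the 4, Fam208a, was called lower (adjusted p = 0.0442). Without ESC replicate 3 all 4 were called lower, in the fit that called 87.0% of all tested genes. Without any other 1 sample none were, and under each of the other scalings 3. The gene not tested, Pphln1, had the opposite order, with 0.461, 0.443 and 0.261 RPKM in ESCs and 0.891, 0.921 and 0.853 RPKM in NPCs. With the filter at a mean of 0.5 RPKM 1 of the 5 genes was called higher and 1 lower, and with no filter 1 higher and 0 lower.

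Members lay on 20 chromosomes, with 35 on chromosome 7, 22 on chromosome 17 and 20 on chromosome 4. With neighbours joined where they were at most 500 kb apart and at least 3 members required, 17 clusters held 101 members, and 70 lay outside. The cluster with the most members was on chromosome 4, at chr4:145510759-147848366 (GRCm38), 2.34 Mb long with 17 members, all with a KRAB box. It held 5 of the 8 members that fell by at least 1.

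In this chromosome 4 cluster all 5 tested members fell. Besides Zfp990, Zfp985 and Zfp979, these were Zfp988, with 2.63, 2.20 and 2.93 RPKM in ESCs and 0.0615, 0.0601 and 0.0706 RPKM in NPCs (a fall of 1.75, adjusted p = 4.01e-06), and Zfp992, with 2.56, 2.20 and 3.29 RPKM in ESCs and 0.444, 0.442 and 0.413 RPKM in NPCs (-1.35, adjusted p = 6.17e-05). The other 12 members failed the filter on the mean over both cell types, which the 5 passed through their ESC levels. With the filter at a mean of 0.5 RPKM, 10 members of the cluster were tested and all 10 were called lower, and with no filter 16 were called lower and 1, Zfp933, higher. The 17 members together summed to 39.8, 33.7 and 36.2 RPKM in ESCs and 3.44, 3.68 and 3.39 RPKM in NPCs. Every ESC sample exceeded every NPC sample for 16 of the 17 members, and the exception, Zfp933 at the far end of the cluster, had 0.397, 0.329 and 0.149 RPKM in ESCs and 0.599, 0.616 and 0.559 RPKM in NPCs. With ESC replicate 3 left out all 5 tested members fell as well, and they did so under both other scalings. With this cluster set aside, 38 KRAB members were tested, of which 17 rose and 10 fell. After median ratio scaling 9 were higher and 12 lower, or 23.68% and 31.58%, against 26.03% and 43.26% of all tested genes. After quantile normalization 9 were higher and 15 lower, or 23.68% and 39.47%, against 32.24% and 38.91% of all tested genes.

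Several of the untested members of this cluster were near 0 in NPCs. Zfp600 had 0.810, 0.733 and 0.442 RPKM in ESCs and 0.00316, 0.00175 and 0.00222 RPKM in NPCs. Zfp980 had 1.34, 1.11 and 1.19 RPKM in ESCs and 0.00491, 0.00326 and 0.00459 RPKM in NPCs. Zfp987 had 0.378, 0.324 and 0.530 RPKM in ESCs and 0 RPKM in each NPC sample. These genes had ESC levels below or just above 1 RPKM and a trace or no RNA in NPCs. Zfp978, Zfp981 and Zfp982 had ESC means of 1.04, 1.60 and 1.52 RPKM and NPC means of 0.00715, 0.0225 and 0.0270 RPKM. Zfp984 had the smallest contrast among the better expressed ones, with 1.43, 1.35 and 1.39 RPKM in ESCs and 0.301, 0.294 and 0.285 RPKM in NPCs. Zfp986, Zfp989, Zfp991 and Zfp993 had ESC means of 0.104, 0.265, 0.270 and 0.146 RPKM and NPC means of 0.00398, 0.00464, 0.0611 and 0.0109 RPKM.

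Genes of this cluster resemble each other in sequence. Of the stretches of 100 bases in the exons of a gene, the share found at more than 1 place of the genome was 2.13% for Zfp985, 7.97% for Zfp990 and 8.35% for Zfp979. It was 48.1% for Zfp988, 49.8% for Zfp992, 75.7% for Zfp600 and 100% for Zfp989. Among all members 88 had no such stretch, 36 had over 10% and 7 had 100%. How reads that map to several places were counted is not given, and the part of such reads in these levels was not tested. Of the members with at most 10%, a limit chosen after the data were seen, 69 were tested, of which 34 rose and 18 fell, Zfp985, Zfp990 and Zfp979 among them.

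**Figure D2:**
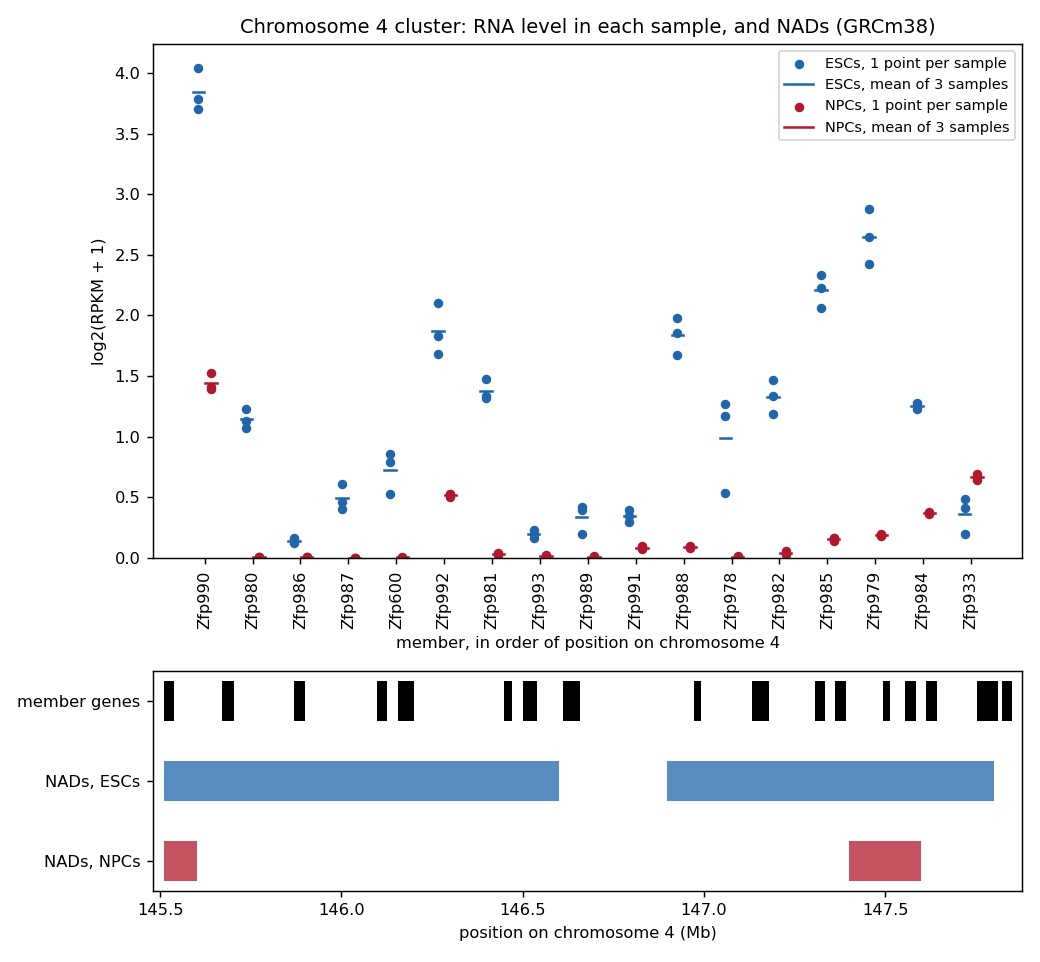
The upper panel shows log2(RPKM + 1) of the 17 members of the chromosome 4 cluster in each of the 6 samples (points) with the mean of 3 samples (short lines); the lower panel shows the members and the NADs of both cell types along chromosome 4 in Mb. ESC points lie above NPC points for 16 members and below them for Zfp933, and NADs cover 85.2% of the cluster in ESCs and 12.4% in NPCs.

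Since every ESC sample lay above every NPC sample for 16 of the 17 members of the cluster, the promoters of the cluster were compared. The RefSeq promoter table for GRCm38.p6 had an entry for 144 of the 171 members and for 11 of the 17 in the cluster, namely Zfp980, Zfp987, Zfp600, Zfp981, Zfp993, Zfp988, Zfp982, Zfp985, Zfp979, Zfp984 and Zfp933. In the 250 bases before the start, 9 of these 11 shared a stretch of 15 bases, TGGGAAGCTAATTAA, on the strand of the gene. It was the longest stretch held by 9 of them, and its letters were found by comparing these promoters, after the levels were seen. Searched on both strands, it occurred in the promoters of 12 of 27025 genes, or 0.0444%. The other 3 were Gm13212, Rex2 and Zfp534, all between the ends of the same cluster. The 2 promoters of the cluster without it were those of Zfp933 and Zfp993. For Zfp993 the RefSeq start lies 98.1 kb from the GENCODE start of the same symbol and for Zfp981 12.9 kb, so for these 2 the promoter and the level may not belong to the same transcript. The letters CCAAT, on either strand, were in 9 of the 11 promoters and in 37.5% of all promoters, and GGGCGG, on either strand, in 8 of the 11 and in 35.4%. Zfp979 had the largest fall with all samples and no rescaling, and Zfp985 also fell. Zfp600 was near 0 in NPCs, and Zfp933 had the opposite order of levels. The lines below give their promoters 5′ to 3′ on the strand of the gene, with the stretch of 15 bases in capitals.
Zfp979 (chr4:147642509-147642758, minus strand): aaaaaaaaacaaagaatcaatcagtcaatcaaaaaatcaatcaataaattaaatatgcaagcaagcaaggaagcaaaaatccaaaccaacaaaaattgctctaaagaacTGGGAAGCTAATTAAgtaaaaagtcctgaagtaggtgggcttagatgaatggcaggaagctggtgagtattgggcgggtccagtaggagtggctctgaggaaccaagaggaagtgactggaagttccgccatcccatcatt
Zfp985 (chr4:147553027-147553276, plus strand): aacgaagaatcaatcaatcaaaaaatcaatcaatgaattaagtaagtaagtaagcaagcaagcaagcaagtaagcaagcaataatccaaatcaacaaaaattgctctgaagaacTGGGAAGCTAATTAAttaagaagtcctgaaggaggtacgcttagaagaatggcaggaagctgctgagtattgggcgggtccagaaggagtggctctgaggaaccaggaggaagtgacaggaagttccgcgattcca
Zfp600 (chr4:146156577-146156826, plus strand): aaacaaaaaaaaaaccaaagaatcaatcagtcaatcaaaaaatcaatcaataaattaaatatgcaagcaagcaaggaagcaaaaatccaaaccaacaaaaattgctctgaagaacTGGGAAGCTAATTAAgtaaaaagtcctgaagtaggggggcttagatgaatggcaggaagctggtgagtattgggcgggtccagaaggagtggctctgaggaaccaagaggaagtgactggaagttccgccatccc
Zfp933 (chr4:147848419-147848668, minus strand): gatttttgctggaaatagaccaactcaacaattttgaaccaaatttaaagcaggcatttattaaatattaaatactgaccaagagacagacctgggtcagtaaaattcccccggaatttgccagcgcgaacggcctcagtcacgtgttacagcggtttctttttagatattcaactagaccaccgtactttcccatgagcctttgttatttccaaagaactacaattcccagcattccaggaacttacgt

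The 3 further genes with the stretch also had more RNA in ESCs. Zfp534, a zinc finger gene with a number below 600, had 1.99, 1.65 and 2.03 RPKM in ESCs and 0.0845, 0.0833 and 0.0746 RPKM in NPCs. Gm13212 had 0.357, 0.326 and 0.237 RPKM in ESCs and 0.0462, 0.0520 and 0.0439 RPKM in NPCs, and Rex2 0.144, 0.113 and 0.0984 RPKM in ESCs and 0 RPKM in each NPC sample. None of the 3 passed the filter, and all were named after their promoters were seen. Since the letters came from members chosen for their common order of levels, that order in the 9 is no test of the stretch, and Zfp993, without it, had the same order.

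The same region differed between the NAD lists of the cell types. In ESCs, NADs at chr4:145000143-146600185 and chr4:146897481-147800226 covered 85.2% of the cluster and overlapped 15 of its 17 members. In NPCs, NADs at chr4:145400160-145600218 and chr4:147400253-147599536 covered 12.4% and overlapped 3, Zfp990, Zfp982 and Zfp985. The cluster thus lay mostly in NADs in the cell type in which 16 of its members had more RNA. Each list gives 1 score per NAD and no value per sample, so this difference between the lists was not tested.

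Over all members, 87 of 171 overlapped a NAD in ESCs, or 50.9% (95% Clopper-Pearson interval 43.1 to 58.6%), and 63 in NPCs, or 36.8% (29.6 to 44.5%). Of 21447 genes with a position, 27.1% did so in ESCs and 21.6% in NPCs, and of the Zfp genes below 600, 33.5% and 29.4%. The shares were 62.2% in ESCs and 46.2% in NPCs for KRAB members and 25.0% and 15.4% for members without a KRAB box, and the difference was not tested. These intervals cover counting error only, and neighbouring members often share 1 NAD. Both lists held 51 members, the ESC list alone 36, the NPC list alone 12 and neither 72. Of the 36 in ESC NADs alone 12 were tested, of which 4 rose and 6 fell, and of the 12 in NPC NADs alone 5 were tested, of which 4 rose and 1 fell. Of the 72 outside both 39 were tested, of which 20 rose and 7 fell, and of the 51 inside both 17 were tested, of which 6 rose and 6 fell. Over all tested genes with a position, the shares called higher and lower were 35.8% and 32.1% in ESC NADs alone, 33.3% and 35.4% in NPC NADs alone, 32.9% and 36.3% outside both and 33.2% and 26.9% inside both. The members in each of these sets were few, and whether they differ between the sets was not tested.

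**Figure D3:**
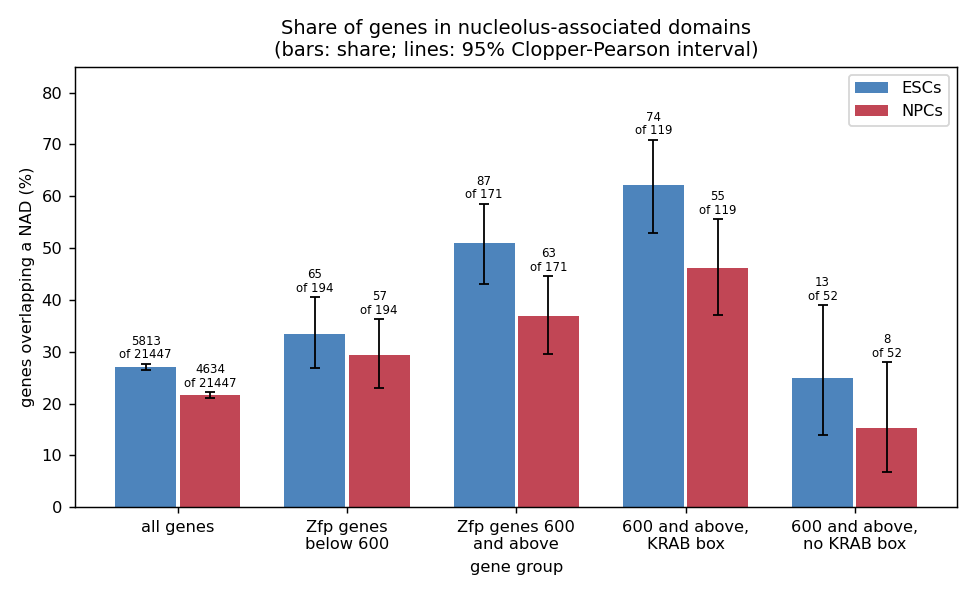
Share of genes that overlap a NAD, in %, for 5 groups of genes in ESCs and NPCs, with counts above the bars and 95% Clopper-Pearson intervals as lines. Members stand at 50.9% in ESCs and 36.8% in NPCs, KRAB members at 62.2% and 46.2%, and all genes at 27.1% and 21.6%.

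Other clusters had calls in either direction, and those not named by the rule were chosen after their values were seen. A cluster at chr7:127244274-127885996 had 9 members, all tested, of which 4 rose, among them Zfp629 and Zfp768, and none fell. After median ratio scaling 2 were called higher, without Zfp764 and Zfp668, and 1, Zfp747, lower, and after quantile normalization 2 higher and 2, Zfp771 and Zfp747, lower. With replicate number as a block Zfp764 lost its call and Zfp771 was called lower, as Zfp771 was without ESC replicate 1. Zfp764 also lost its call without ESC replicate 2 or without any 1 NPC sample, and kept it in 8 of the 15 alternatives. Without ESC replicate 3, 6 were called higher, with Zfp688 and Zfp689 added, and Zfp747 lower. Its members summed to 23.6, 24.9 and 23.3 RPKM in ESCs and 60.6, 64.8 and 63.5 RPKM in NPCs, and none overlapped a NAD in either cell type. A cluster at chr8:69209038-69791178 had 6 KRAB members, of which 4 were tested, 3 rose, Zfp869 the most, and 1, Zfp930, fell. After median ratio scaling Zfp869 alone was called higher, and with replicate number as a block, without ESC replicate 1 or without any 1 NPC sample, Zfp868 and Zfp930 lost their calls. Zfp868 also lost it without ESC replicate 2, and without NPC replicate 1 or 2 Zfp866 lost its call too, which left Zfp869 alone. NADs covered 17.4% of it in ESCs, overlapping 0 members, and 82.9% in NPCs, overlapping all 6. Its members summed to 8.20, 7.38 and 6.60 RPKM in ESCs and 13.6, 13.1 and 12.4 RPKM in NPCs. A cluster at chr17:32765496-33033402 had 6 KRAB members, of which 4 rose and 1, Zfp870, fell, its sums were 10.6, 10.1 and 6.38 RPKM in ESCs and 14.3, 13.1 and 13.5 RPKM in NPCs, and NADs covered 100% of it in ESCs and 12.7% in NPCs. After quantile normalization 1 member, Zfp799, was called higher. A cluster at chr17:21383748-22867134, with 14 KRAB members, lay almost wholly in NADs in both cell types, 98.9% and 100%, and of its 3 tested members 2 rose and 1 fell, where the rise of Zfp945 lost its call after median ratio scaling and without any 1 NPC sample. Among the 17 clusters, NADs covered more in ESCs for 9, of which the sums of every ESC sample were higher in 3, those of every NPC sample in 3, and 3 overlapped. NADs covered more in NPCs for 3, with higher sums in NPCs in 2 and in ESCs in 1, and the cover was equal for 5.

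Within the chr17:32765496-33033402 cluster, Zfp871 was the only member of the 171 that lay at least 1 on the log2 scale from the mean of the other samples of its cell type in any sample, and it was named for this after its values were seen. It had 3.03, 3.08 and 0.255 RPKM in ESCs and 4.78, 4.42 and 4.84 RPKM in NPCs. ESC replicate 3 was the low sample, and the gene was not called with it (log2 difference 1.05, adjusted p = 0.0802) and was called higher without it, by 0.48.

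In 4 further clusters, with 3 or 4 members each, all tested members were called in 1 direction, but few were tested. At chr7:4915217-5038446 and chr7:27807196-28014115 2 members were tested, and at chr7:7114690-7209998 and chr8:71882019-71993792 only 1. A single tested member cannot differ in direction from others, and 67.8% of all tested genes were called. At chr7:4915217-5038446, Zfp628 and Zfp865 rose, by 0.43 and 0.89, and Zfp784 was untested with means of 0.0128 and 0.0913 RPKM in ESCs and NPCs. The call of Zfp628 was lost after median ratio scaling and without NPC replicate 2 or 3. At chr7:27807196-28014115, Zfp626 and Zfp850 fell, by 0.45 and 0.66, and Zfp974, between them, was untested and had 0.246, 0.234 and 0.0957 RPKM in ESCs and 0.615, 0.645 and 0.613 RPKM in NPCs, the opposite order. At chr7:7114690-7209998, Zfp954 fell by 0.50, and the untested Zfp773 had means of 1.03 RPKM in ESCs and 0.215 RPKM in NPCs. Zfp772, also untested, overlapped between the groups, at 0.902 and 0.982 RPKM. At chr8:71882019-71993792, Zfp961 fell, the untested Zfp709 had 0.530 RPKM in ESCs and 0.217 RPKM in NPCs, and the untested Zfp617 and Zfp882 had 0.330 and 0.778 RPKM in ESCs and 0.476 and 1.05 RPKM in NPCs. Neighbours at chr7:27807196-28014115 and at chr8:71882019-71993792 therefore did not all have the same order of levels, though Zfp882 overlapped between the groups. At chr7:4915217-5038446 every NPC sample lay above every ESC sample for all 3 members. Zfp865 and Zfp784 overlap in position on opposite strands, and whether reads were assigned by strand is not given. Zfp617 and Zfp882 overlap on the same strand, so strand does not separate their reads, and how shared reads were counted is not given.

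Some members were listed near 0 in both cell types. The 4 KRAB members of a cluster at chr2:175372436-175931100, Zfp968, Zfp965, Zfp969 and Zfp966, summed to at most 0.00254 RPKM in any sample, and no NAD of either list covered them. Each of the 4 has 100% of its exon stretches at more than 1 place, so low RNA and reads not counted for this reason cannot be told apart. Zfp935 was given on 2 lines of the tables and was left out of the test. Its first line had 1.05, 0.944 and 0.308 RPKM in ESCs and 1.32, 1.14 and 1.05 RPKM in NPCs, and its second 0.138, 0.125 and 0.0406 RPKM in ESCs and 0.174, 0.150 and 0.139 RPKM in NPCs.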

How the data were processed

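The authors prepared poly(A) libraries, removed ribosomal reads, trimmed and mapped them to mm10 with STAR, and deposited exon coverage as RPKM for 3 ESC and 3 NPC samples. For NADs, the authors aligned reads with Bowtie2 2.3.4.3, per the labels, compared H2B-Dam-NoLS with H2B-Dam and deposited 1 score for each of 1769 ESC and 1447 NPC domains. The annotation and the handling of reads with several places are not given, and the sources name different library kits. The tables' 153 symbols on more than 1 line were left out of the fit. Values were taken as log2(RPKM + 1), genes with a mean under 1 RPKM were left out, and limma 3.58.1 in R 4.3.3 (eBayes with a trend, tested on simulated data) compared NPCs with ESCs over 7150 genes with Benjamini-Hochberg adjustment. Its p-values measure the spread between the replicate samples of a cell type. Positions, coding sequences, KRAB boxes, C2H2 fingers and repeated stretches came from GENCODE and GRCm38, overlaps and intervals from Python 3.11.15 with scipy 1.17.1, and promoters from RefSeq GRCm38.p6. Named were the 10 largest called rises and falls, the 5 most abundant members of each cell type, members with a known role, those of the largest cluster and of clusters called in 1 direction, and co-repressor genes. Members and lists were chosen with earlier results of these data known. Alternatives changed the pseudocount, filter, scaling, trend, replicate block, samples and the expression, NAD and cluster limits.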

Additional observations from a re-analysis of the deposited data

How the results depend on the processing

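Of 735 log2 differences, those of 49 named genes under 15 alternatives, 698 kept their direction and their side of the threshold, 19 lost the call, 17 gained one and 1 turned: that of Zfp661 was -0.064 after quantile normalization, and the cause was not tested. Without a filter, 77 members were higher and 46 lower, and of the Zfp genes below 600, 109 were higher and 29 lower, since more genes were tested. The members' shares were 46.4% and 27.7%, against 39.5% and 22.9% of all tested genes in that fit. With a mean of at least 0.5 RPKM, 51 members were higher and 32 lower, or 46.4% and 29.1%, against 37.0% and 32.0% of all tested genes. Leaving out 1 sample at a time gave 26 to 39 members higher and 17 to 24 lower, with 39 and 24 without ESC replicate 3. It gave 15 to 29 Zfp genes below 600 lower, 2 to 4 co-repressor genes higher and 5 to 10 lower. The share called in these fits ran from 58.9 to 86.3% of tested members and from 55.2 to 87.0% of all tested genes. Among members expressed, 103 in ESCs had a mean of at least 0.5 RPKM, 28 in ESCs and 33 in NPCs a mean of at least 2 RPKM, and leaving out 1 sample gave 62 to 68 in ESCs and 70 to 72 in NPCs. With NADs at or above the median score alone, 44.4% of members overlapped one in ESCs and 25.7% in NPCs. The NPC share lay under the interval of 29.6 to 44.5% found with all NADs. The share of all genes was not computed under this rule, so these values have no baseline. Clusters numbered 20 with 98 members when joined at 250 kb and 17 with 111 members when joined at 1 Mb. With the replicate number as a block, 30 members were higher and 20 lower, or 41.1% and 27.4%, against 31.3% and 32.3% of all tested genes. In that fit Cbx1 and Mphosph8 lost their calls and Fam208a was called lower. However, no label says that equal replicate numbers share a preparation. Deviations from the group mean correlated between equal numbers at r = 0.113, -0.0839 and 0.031, and between unequal numbers at -0.0889 to 0.0895. With 3 samples per cell type these values cannot decide whether the samples were paired. Members with at most 10% repeated stretches, an alternative chosen after seeing the data, gave 34 higher and 18 lower. Low RPKM values rest on few reads, and the tables give neither the depth of each library nor the replicate values behind the NAD scores.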
